A study of Mus musculus with 16 samples.

Results

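The common gamma chain cytokine receptors were 8 genes, chosen by symbol from the 55401 genes of the deposited tables: Il2ra, Il2rb, Il2rg, Il4ra, Il7r, Il9r, Il15ra and Il21r. All 8 were found, and 7 passed the filter on low counts and were tested; Il9r was close to 0 in every library. The study cultured splenic CD8+ T cells of OT-I mice, whose transgenic receptor recognizes an ovalbumin peptide, and measured their poly(A) RNA. All cultures were activated with that peptide, and the cytokine added afterwards was IL-2 in effector cultures (TE) and IL-15 in memory cultures (TM). Cells were wild type (WT) or TPdh−/−, in which CD4-cre acted on a floxed Pdha1 gene and so removed the E1 alpha subunit of pyruvate dehydrogenase from T cells of both the CD4 and CD8 lineage. Each of the 4 groups had 4 libraries. Numbers 1 to 4 were the WT TE libraries and 5 to 8 those of TPdh−/− TE, while in memory cultures 9 to 12 were WT and 13 to 16 were TPdh−/−. The mice were young adults of both sexes per the study's methods. The study gives more mice per condition for its RNA sequencing than the libraries analysed here, and the labels do not say whether libraries came from separate animals, so p values measure the spread between these libraries, which may be technical.

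Receptors of this family share the common gamma chain, the product of Il2rg, which recruits the kinase JAK3, while a partner chain recruits JAK1. The IL-2 receptor adds the beta chain (Il2rb) and, for high affinity, the alpha chain CD25 (Il2ra). The IL-15 receptor uses the same beta and gamma chains, and its alpha chain (Il15ra) can present IL-15 to neighbouring cells. Il4ra, Il7r, Il9r and Il21r encode the chains specific for IL-4, IL-7, IL-9 and IL-21. Binding activates STAT proteins, chiefly STAT5 for IL-2, IL-7 and IL-15, and in CD8+ T cells IL-7 and IL-15 are known for the survival of memory cells.

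The libraries held 53007257 to 73507566 expected counts each. WT TM library 12 and TPdh−/− TE library 5 stood apart from their groups, with a chi-square per degree of freedom of 53.7 to 70.3 for library 12 against the other WT TM libraries, which gave 9.13 to 15.9 among themselves, and of 23.4 to 61.3 for library 5 against its group, whose other libraries gave 19.3 to 24.8. Values without these libraries are given where they changed a call. TPdh−/− TM library 13 also stood off, at 19.2 to 43 against its group, whose other libraries gave 16.1 to 23.1. Pdha1 counts over the whole gene cannot show the loss of an exon. Pdha1 fell by 0.22 on the log2 scale in TPdh−/− TM (adjusted p = 0.00556, edgeR), and its difference in TE was -0.08 (adjusted p = 0.285). The CD8 T cell markers summed to 2573 to 4430 TPM across libraries, with none at 0. Other cells' markers differed with genotype and with culture, and are given beside the results they accompany. In bulk RNA, fewer cells of a type and less RNA per cell cannot be told apart.

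Levels are given as CPM, counts relative to the TMM-scaled library size, for comparisons between libraries, and as TPM, which corrects for transcript length, for comparisons between genes. A gene was called at an adjusted p under 0.05 in edgeR's quasi-likelihood test over 15277 genes. Log2 differences are TPdh−/− minus WT for genotype and TM minus TE for culture, with an SE from the spread of the libraries' log2 CPM.

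The 2 largest pools of receptor transcripts were those of the shared chains. On the TPM scale, Il2rg held on average 40.2% of the summed TPM of the 8 genes in WT TE, 39.1% in TPdh−/− TE, 57.8% in WT TM and 54.4% in TPdh−/− TM. Il2rb held 34.3% in WT TE, 26.4% in TPdh−/− TE, 19.4% in WT TM and 18.7% in TPdh−/− TM. The share of Il2ra was 8.25% in WT TE and 15.3% in TPdh−/− TE, against 2.56% in WT TM and 3.68% in TPdh−/− TM. Il7r had the cultures in the reverse order, with 4.02% and 4.24% in WT and TPdh−/− TE and 6.98% and 11.5% in WT and TPdh−/− TM. Il15ra never passed 1.70% and Il9r never passed 0.0147% of the sum in a library. The summed TPM of the family was 1149 in WT TE, 1310 in TPdh−/− TE, 1304 in WT TM and 1465 in TPdh−/− TM.

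**Figure D1:**
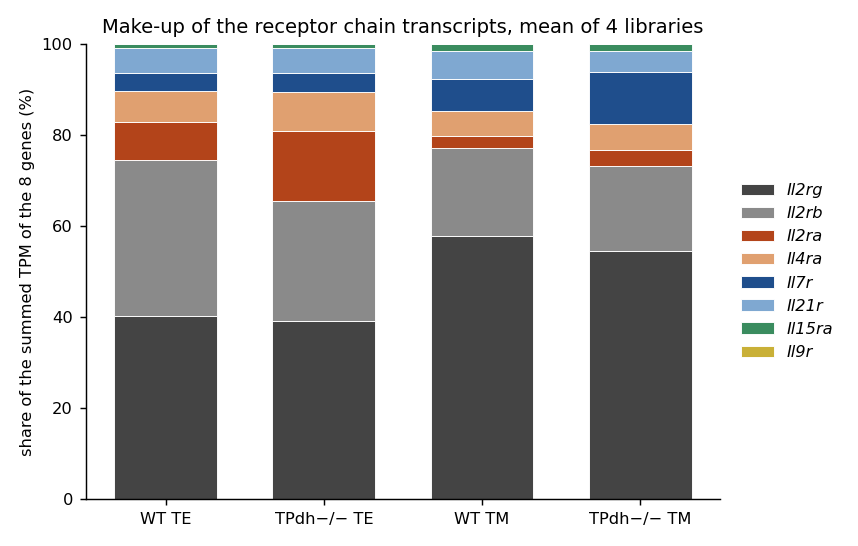
Each bar shows 1 group, divided into the mean share (%) of each of the 8 genes in their summed TPM over 4 libraries. Il2rg and Il2rb filled most of each bar, Il2ra took its largest share in TPdh−/− TE (15.3%) and Il7r in TPdh−/− TM (11.5%).

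In WT, 4 members were higher and 3 lower in TM than in TE, 7 of 7 tested, where 68.6% of all tested genes were called. In TPdh−/− cells 3 were higher, 3 lower and 1 not called, against 67.7% of all genes. With most genes called in these comparisons, the counts of members called are close to what the background gives. The libraries of the cultures did not overlap for 6 of 7 members in WT and 5 of 7 in TPdh−/−, where this held for 63.9% and 59.8% of all genes. The median log2 difference of the 7 members was 0.20 in WT and -0.11 in TPdh−/−, beside 0.0076 and -0.0031 over all genes. In both genotypes Il2ra, Il2rb and Il4ra were lower in TM, and Il2rg, Il7r and Il15ra were higher.

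**Figure D2:**
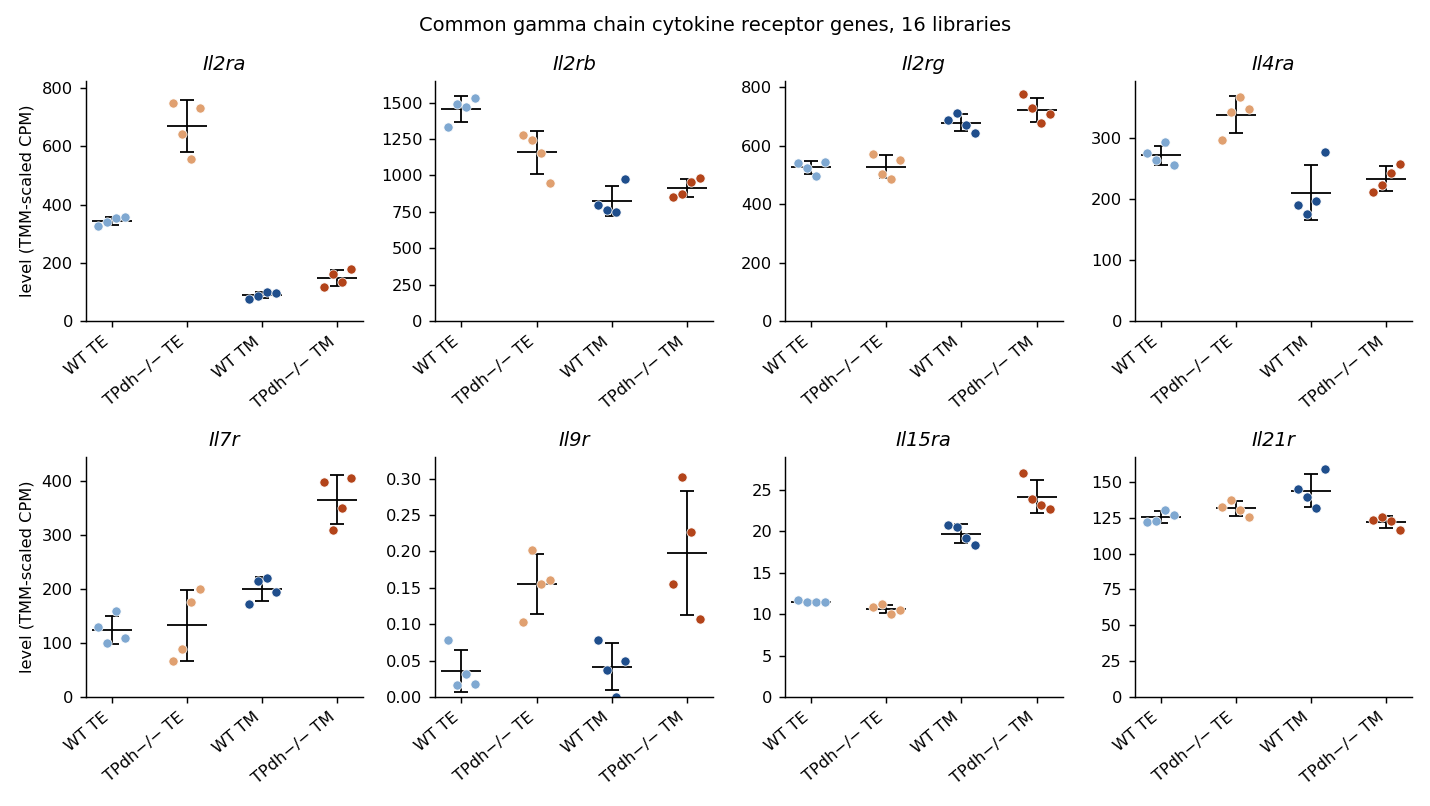
Each panel shows 1 gene, with its level in TMM-scaled CPM on the vertical axis and the 4 groups on the horizontal axis; points are libraries, and bars give the mean and SD of 4 libraries. Il2ra was highest in TPdh−/− TE and Il7r and Il15ra in TPdh−/− TM, while Il7r in TPdh−/− TE fell into 2 low and 2 high libraries.

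Il2ra lies at chr2:11642807-11693193 (GRCm38, plus strand), and Il15ra follows it at chr2:11705290-11734317 on the same strand, with 12096 bases and 0 coding genes between them. These neighbours moved in opposite directions between the cultures, so the stretch just before each start is shown, as RefSeq gives it on GRCm38.p6, from 150 to 6 bases before the start (chr2:11642642-11642786 and chr2:11705143-11705287).
Il2ra: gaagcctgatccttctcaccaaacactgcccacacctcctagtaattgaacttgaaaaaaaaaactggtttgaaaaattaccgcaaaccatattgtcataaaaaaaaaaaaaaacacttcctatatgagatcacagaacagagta
Il15ra: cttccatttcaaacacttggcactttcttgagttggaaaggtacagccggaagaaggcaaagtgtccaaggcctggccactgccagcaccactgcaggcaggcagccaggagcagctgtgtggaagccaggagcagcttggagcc
The Il2ra stretch has 2 runs of A, and neither sequence overlaps an annotated exon. Neither gene's promoter windows held the letters TTCNNNGAA, a core that STAT5 is known to bind and that reads the same on both strands. Windows covered the 250 bases before each RefSeq start, and 2306 of 32851 windows (7.02%) held the motif.

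Il2ra, the CD25 chain that STAT5 itself is known to induce, had the widest range of the 7 tested members as a fold. In WT TE its libraries were at 326.7, 341.4, 353.4 and 359.2 CPM, and in TPdh−/− TE at 749.7, 644.1, 557.5 and 731.1 CPM. In WT TM they were at 77.8, 87.8, 101.5 and 96.7 CPM, and in TPdh−/− TM at 118.4, 162.3, 134.7 and 179.4 CPM. No 2 groups overlapped, in the order WT TM, TPdh−/− TM, WT TE and TPdh−/− TE.

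Il2ra was 3.79-fold lower in WT TM than in WT TE (log2 -1.92, SE 0.0900, adjusted p = 3.94e-10, edgeR) and 4.51-fold lower in TPdh−/− TM than in TPdh−/− TE (log2 -2.17, SE 0.166, adjusted p = 1.16e-10). Loss of Pdha1 accompanied higher Il2ra in both cultures, 1.94-fold in TE (log2 0.96, SE 0.103, adjusted p = 9.4e-06) and 1.64-fold in TM (log2 0.71, SE 0.159, adjusted p = 0.00037). The genotype difference was not shown to differ between cultures (log2 -0.25, SE 0.189, adjusted p = 0.339). The TPM ratio of the group means gave a smaller culture difference in WT, log2 -1.51.

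Regulatory T cells also carry CD25. Of the 5 CD4 and regulatory T cell markers 3 rose in TPdh−/− TE (Cd4, Foxp3 and Ikzf4) and 2 in TPdh−/− TM (Cd4 and Zbtb7b), and none was at 0. Of all tested genes 31.6% were called between genotypes in TE and 18.3% in TM. Between the WT cultures Il2ra was lower in TM. Of the 5 markers, Cd4 and Ikzf4 were higher there (log2 2.10 and 1.11), Zbtb7b was lower (-1.79) and 2 were not called. Of all tested genes 68.6% were called in that comparison. Cd4 was sparse, with 15 counts in total in WT TE and 63 in WT TM. The summed TPM of the 5 markers was 14.7 to 23.4 in WT TE and 25.6 to 32.7 in TPdh−/− TE. In TM it was 11.9 to 15.8 in WT and 15.9 to 17.8 in TPdh−/−. Foxp3, the defining factor of those cells, was at 0.703 to 1.28 CPM in WT TE and 4.14 to 21.4 CPM in TPdh−/− TE, while Cd4 did not pass 0.364 CPM in either. In TM, Foxp3 was at 1.42 to 2.13 CPM in WT and 1.58 to 4.51 CPM in TPdh−/−, with overlapping libraries (log2 0.89, adjusted p = 0.142, edgeR). Whether regulatory T cells were present, and their part in the Il2ra difference, was not tested.

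The length of the Il2ra transcripts differed between cultures as well. RSEM gives each gene a mean transcript length in each library, weighted by the estimated abundance of its annotated transcripts, which for Il2ra have 4412, 1013 and 502 bases. The mean was 4089 to 4134 bases in WT TE and 4135 to 4162 in TPdh−/− TE, and 3475 to 3653 in WT TM and 3439 to 3557 in TPdh−/− TM. The TM libraries all lay below the TE libraries. The log2 difference in length was -0.21 in WT (adjusted p = 9.42e-07, limma) and -0.25 in TPdh−/− (adjusted p = 3.43e-07). Such a comparison, added after the data were seen, also called Il2rg (log2 length -0.12, adjusted p = 4.66e-05) and Il7r (-0.09, adjusted p = 0.000768) in WT. In TPdh−/− it called Il2rg (-0.13, adjusted p = 2.23e-05), Il7r (-0.13, adjusted p = 6.66e-05) and Il4ra (-0.05, adjusted p = 0.0342). That made 3 of 7 members in WT, where 27.7% of 10124 genes with several transcripts were called, and 4 of 7 in TPdh−/−, where 26.2% were. No member was called for length between genotypes, where 0.0198% of genes were called in TM and 0.128% in TE. Il4ra came closest, with a log2 difference of -0.07 in TM (adjusted p = 0.140) and -0.06 in TE (adjusted p = 0.181).

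**Figure D3:**
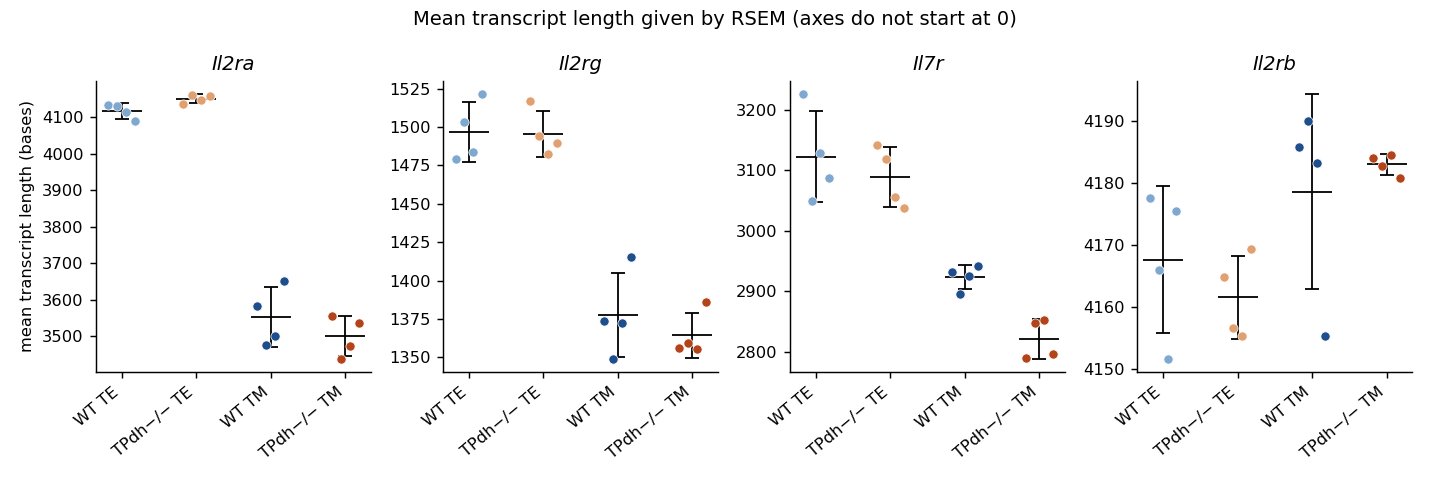
The vertical axis is the mean transcript length in bases that RSEM gives the gene in a library; points are libraries, and bars give the mean and SD of 4 libraries per group. For Il2ra, Il2rg and Il7r every TM library lay below every TE library, while Il2rb, shown for contrast, stayed between 4152 and 4190 bases.

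Il2rb, the signalling beta chain of the IL-2 and IL-15 receptors, lies at chr15:78479256-78495271 (minus strand) and was the most abundant member by CPM. The WT TE libraries were at 1330, 1490, 1467 and 1533 CPM and the TPdh−/− TE libraries at 1280, 1243, 1157 and 949.5 CPM. In TM, the WT libraries were at 800.0, 763.7, 751.5 and 972.5 CPM and the TPdh−/− libraries at 854.9, 875.3, 952.3 and 984.6 CPM. Only the step from TPdh−/− TE up to WT TE had no overlap between neighbouring groups.

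Il2rb fell by 0.33 on the log2 scale in TPdh−/− TE (SE 0.107, adjusted p = 0.0122, edgeR), while its difference in TM was 0.16 (SE 0.0984, adjusted p = 0.267). The genotype effects differed between cultures by 0.49 (SE 0.145, adjusted p = 0.0179). Between cultures, Il2rb was 1.77-fold lower in WT TM (adjusted p = 5.6e-07) and 1.26-fold lower in TPdh−/− TM (adjusted p = 0.00407), the latter with overlapping libraries. On the log2(TPM + 1) scale the genotype difference in TE was -0.20 with adjusted p = 0.217 (limma), and the difference between cultures 0.32 with adjusted p = 0.172. That scale moved the median of all genes by 0.09 for genotype in TE, 0.12 for culture in WT and -0.12 for the difference of the genotype effects. Leaving out libraries 5 and 12, the genotype difference in TM was 0.25 (adjusted p = 0.0459, edgeR).

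On the TPM scale, Il2ra was at 0.241 ± 0.00724 (SD, n = 4) of Il2rb in WT TE, 0.591 ± 0.129 in TPdh−/− TE, 0.134 ± 0.0237 in WT TM and 0.197 ± 0.0322 in TPdh−/− TM. The ranges of WT and TPdh−/− TE were apart (0.231 to 0.249 and 0.483 to 0.772), and those of WT and TPdh−/− TM were adjacent (0.114 to 0.164 and 0.165 to 0.230). Il2ra exceeded Il15ra by a TPM ratio of 9.18 ± 0.550 in WT TE and 18.7 ± 2.36 in TPdh−/− TE, but by 1.67 ± 0.217 in WT TM and 2.36 ± 0.581 in TPdh−/− TM. The ratios describe the libraries and carry no test.

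Il2rg, the shared gamma chain at chrX:101264378-101268255 (minus strand), had the highest TPM of the family. The WT TE libraries were at 540.7, 523.4, 497.1 and 544.0 CPM and the TPdh−/− TE libraries at 571.7, 504.5, 486.9 and 551.1 CPM. The TM libraries were at 689.0, 711.5, 672.0 and 645.0 CPM in WT and at 775.7, 730.3, 679.2 and 709.4 CPM in TPdh−/−. Every TM library lay above every TE library, and the genotypes overlapped within each culture.

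Il2rg rose 1.29-fold in TM in WT (log2 0.37, SE 0.0422, adjusted p = 2.91e-05, edgeR) and 1.37-fold in TPdh−/− (log2 0.45, SE 0.0673, adjusted p = 3.1e-06). The ratio of the TPM means was larger, log2 0.70 in WT and 0.64 in TPdh−/−. The genotype difference was 0.01 in TE (SE 0.0616, adjusted p = 0.950) and 0.09 in TM (SE 0.0501, adjusted p = 0.317). Il2rg shares 728 exon bases (30.5% of its own) with the overlapping gene Gm20489, which RSEM placed at 8.48 counts or fewer in any library.

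Il15ra, the alpha chain of the IL-15 receptor, was low but tightly measured. In WT TE its libraries were at 11.65, 11.43, 11.45 and 11.41 CPM and in TPdh−/− TE at 10.9, 11.2, 10.04 and 10.5 CPM. They reached 20.7, 20.6, 19.2 and 18.4 CPM in WT TM and 27.0, 23.9, 23.2 and 22.6 CPM in TPdh−/− TM. The 4 groups did not overlap, in the order TPdh−/− TE, WT TE, WT TM and TPdh−/− TM.

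Il15ra rose 1.72-fold in TM in WT (log2 0.78, SE 0.0413, adjusted p = 1.16e-08, edgeR) and 2.27-fold in TPdh−/− (log2 1.18, SE 0.0661, adjusted p = 9.88e-11). It rose 1.23-fold in TPdh−/− TM over WT TM (log2 0.29, SE 0.0699, adjusted p = 0.00322), and its difference in TE was -0.11 (SE 0.0344, adjusted p = 0.217). The difference of the genotype effects was 0.40 (SE 0.0780, adjusted p = 0.00562). On the log2(TPM + 1) scale the genotype difference in TM was 0.20 (adjusted p = 0.138, limma) and that between cultures 0.15 (adjusted p = 0.372), and the WT and TPdh−/− TM libraries overlapped in TPM. The annotation gives Il15ra 18 transcript models, and its mean length was not called in any comparison.

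Il7r, the IL-7 receptor alpha chain and a marker of memory precursors, lies at chr15:9505788-9530176 (minus strand). Its promoter window was the only one of 8 from 7 members that held the motif, 142 bases before the RefSeq start, shown here in capitals (chr15:9530000-9530028, minus strand, GRCm38.p6) and in no annotated exon. The RefSeq start lies inside the gene bounds given above, so the motif does too. Il2rb had no window.
Il7r: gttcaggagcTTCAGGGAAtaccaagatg
The match describes the letters in this window, and no binding was measured.

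In WT TE, Il7r was at 129.3, 99.9, 158.8 and 110.0 CPM, and in TPdh−/− TE at 66.2, 88.1, 176.2 and 199.4 CPM. In WT TM it was at 171.3, 215.4, 220.5 and 194.2 CPM and in TPdh−/− TM at 397.1, 309.5, 349.3 and 406.1 CPM. The TPdh−/− TM libraries stood above all others, and TPdh−/− TE split into libraries 5 and 6 below and libraries 7 and 8 above the WT TE range. Its SE in TE was therefore 0.412, the largest of the family.

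Il7r rose 1.82-fold in TPdh−/− TM (log2 0.87, SE 0.123, adjusted p = 0.0230, edgeR). The call was lost in 5 of 23 alternatives, which were the log2(TPM + 1) scale and leaving out library 9, 12, 13 or 16, with adjusted p up to 0.0676. Over all 23 the log2 difference was 0.80 to 0.94. In TE the genotype difference was 0.09 (adjusted p = 0.821), and the difference between the genotype effects was 0.78 (SE 0.430, adjusted p = 0.153). Without TPdh−/− TE library 8 it was 1.05 with adjusted p = 0.0377. In TM over TE, Il7r rose 1.61-fold in WT (log2 0.69, SE 0.168, adjusted p = 0.0227) and 2.76-fold in TPdh−/− (log2 1.46, SE 0.395, adjusted p = 7.26e-05). The WT call was lost without library 2, 4 or 11, with adjusted p up to 0.0709.

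Il4ra and Il21r are neighbours too, at chr7:125552120-125579474 and chr7:125603429-125633570 (plus strand), with 23954 bases and 0 coding genes between them. Il4ra binds IL-4 with the gamma chain and IL-13 with another partner, and Il21r binds IL-21. Il4ra was at 275.0, 263.9, 293.0 and 256.2 CPM in WT TE and at 297.0, 342.5, 367.3 and 347.7 CPM in TPdh−/− TE. In TM it was at 190.6, 176.5, 197.2 and 276.6 CPM in WT and at 212.3, 222.7, 242.2 and 258.5 CPM in TPdh−/−. Library 12 alone carried the WT TM group into the range of the others.

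Il4ra rose 1.24-fold in TPdh−/− TE (log2 0.32, SE 0.0776, adjusted p = 0.0376, edgeR), a call lost in 6 of 23 alternatives, each leaving out library 1, 2, 4, 6, 7 or 8, with adjusted p up to 0.104. In TM its difference was 0.15 (SE 0.157, adjusted p = 0.370), and 0.32 (adjusted p = 0.0101) without library 12. Il4ra was 1.29-fold lower in WT TM than in WT TE (adjusted p = 0.00654) with overlapping libraries, and 1.45-fold lower in TPdh−/− TM than in TPdh−/− TE (adjusted p = 0.000385) with none. On the log2(TPM + 1) scale the WT difference was -0.16 (adjusted p = 0.302, limma). Il4ra shares 571 exon bases (9.51% of its own) with Gm44876 on the other strand, and the kit kept no strand; RSEM gave that gene 0 counts in all 16 libraries.

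Il21r was at 121.8, 122.5, 130.6 and 127.0 CPM in WT TE, 132.6, 137.7, 130.6 and 125.2 CPM in TPdh−/− TE, 144.8, 139.4, 132.0 and 159.0 CPM in WT TM and 123.5, 125.8, 122.9 and 116.3 CPM in TPdh−/− TM. It was the flattest member, and by CPM only WT TM and TPdh−/− TM were apart within a culture. By TPM the genotypes overlapped in TM and were apart in TE, at 59.1 to 65.1 in WT and 67.8 to 75.7 in TPdh−/−. Il21r fell by 0.24 on the log2 scale in TPdh−/− TM (SE 0.0616, adjusted p = 0.00525, edgeR), while its TE difference was 0.07 (SE 0.0370, adjusted p = 0.367). The genotype effects differed by -0.30 (SE 0.0719, adjusted p = 0.0116), a call kept in 22 of 22 alternatives. In TM over TE, Il21r rose 1.15-fold in WT (adjusted p = 0.00381), and its difference in TPdh−/− was -0.11 (adjusted p = 0.0870). Leaving out WT TM library 12, which is in neither TPdh−/− group, gave -0.10 for TPdh−/− (adjusted p = 0.0480, edgeR). The Il21r call in TM thus ran against Il2ra, Il7r and Il15ra, which rose there.

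Il9r, the IL-9 receptor at chr11:32187541-32200279 (minus strand), had 0 to 17 counts per library. Its counts were 5, 1, 2 and 1 in WT TE, 6, 15, 11 and 9 in TPdh−/− TE, 5, 2, 0 and 3 in WT TM, and 9, 17, 15 and 6 in TPdh−/− TM. Every TPdh−/− library held more counts than any WT library of its culture. The gene did not pass the filter of the main test. With no filter, edgeR gave a log2 difference of 2.17 in TM (adjusted p = 0.0131) and 2.03 in TE (adjusted p = 0.0168), where 10.1% and 16.9% of 26900 genes were called. Between cultures the same fit gave 0.19 in WT (adjusted p = 0.924) and 0.33 in TPdh−/− (adjusted p = 0.621). At a mean of 0.155 CPM in TPdh−/− TE and 0.198 CPM in TPdh−/− TM, these counts are few even where they differ.

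Between genotypes, 3 members rose and 1 fell in TM, 4 of 7 tested, where 18.3% of all genes were called. In TE 2 rose and 1 fell, where 31.6% were called, and for the difference of the genotype effects 2 were positive and 1 negative, where 15.6% were. The libraries did not overlap for 4 of 7 members in each culture, against 20.8% of all genes in TM and 33.1% in TE. The median log2 difference of the members was 0.16 in TM and 0.07 in TE, beside -0.0048 and -0.00025 over all genes. Of the 7 tested members, only Il2ra was called in the same direction in both cultures. The comparisons share libraries by group, and members are not replicates of each other.

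**Figure D4:**
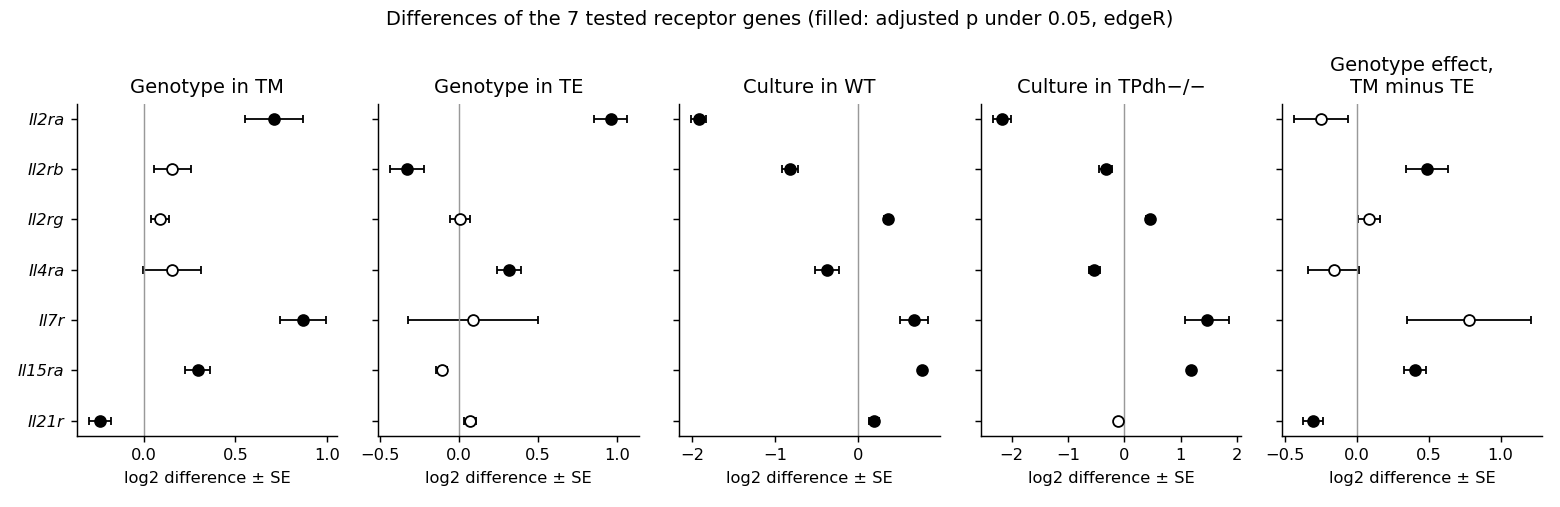
Points are log2 differences of the 7 tested genes in 5 comparisons, bars give ± SE, and filled points have adjusted p under 0.05 (edgeR); each panel has its own horizontal scale. Il2ra was higher with loss of Pdha1 in both cultures, Il7r and Il15ra in TM, and the largest culture differences were those of Il2ra (-1.92 and -2.17).

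Most markers of innate cells rose in TPdh−/− TM, where Il7r and Il15ra rose. Between genotypes, 18.3% of all tested genes were called in TM and 31.6% in TE. NK and other innate lymphocytes are known to carry Il2rb, Il7r and Il15ra. All 7 NK cell markers rose in TPdh−/− TM and 5 of 7 in TPdh−/− TE, and their summed TPM was 5.29 to 8.16 in WT TM and 64.02 to 102.3 in TPdh−/− TM. In TE the sum was 5.49 to 7.16 in WT and 8.84 to 14.97 in TPdh−/−. The NK marker Klra4 passed the filter mainly through TPdh−/− TM. It totalled 2, 28, 34 and 511 counts in WT TE, TPdh−/− TE, WT TM and TPdh−/− TM. No NK marker was at 0 over a whole group, although the NK receptor Ncr1 was at 0.004 CPM in WT TE and 7.94 CPM in TPdh−/− TM. Of the innate lymphoid cell markers 2 of 4 tested rose in TM and 3 of 4 in TE, with summed TPM of 1.36 to 2.25 in WT TM and 7.80 to 12.1 in TPdh−/− TM, where Areg was at 0.

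Macrophage and monocyte markers rose for 6 of 7 in TM and 5 of 7 in TE, with summed TPM of 5.38 to 7.03 in WT TM and 24.6 to 41.0 in TPdh−/− TM. Some passed the filter mainly through TPdh−/− TM. C1qb totalled 8, 11, 13 and 150 counts in WT TE, TPdh−/− TE, WT TM and TPdh−/− TM, and Adgre1 5, 19, 30 and 136. For such markers a counted rise in TM is a description and no support. Gamma-delta T cell markers rose for 4 of 5 in each culture, with summed TPM of 50.2 to 55.4 in WT TM and 98.9 to 112.9 in TPdh−/− TM. B cell markers rose for 1 of 6 in TM and 0 of 6 in TE, dendritic cell markers for 3 of 3 tested in TM and 1 of 3 in TE, where another fell, and mast cell and basophil markers for 1 of 2 tested and 0 of 2. Siglech, a plasmacytoid dendritic cell marker, was at 0 in both TE groups, and the mast cell protease gene Tpsb2 in all 4 groups. CD8 T cell markers fell for 4 of 7 in TM and 6 of 7 in TE and rose for none. Marker lists also differed between cultures, where 68.6% of all tested genes were called in WT and 67.7% in TPdh−/−. In TM over TE, B cell markers had 4 higher and 1 lower in WT and 5 and 0 in TPdh−/−. For NK cell markers these were 3 and 3, then 7 and 0. Macrophage and monocyte markers had 4 and 1, then 6 and 1. Gamma-delta T, innate lymphoid, dendritic and mast cell lists had no more higher than lower in either genotype. The paper reads raised granzyme and killer-like receptor genes in TPdh−/− TM cells as abnormal differentiation with effector functions kept. For this it also cites upstream regulators, granzyme B activity and cell killing assays. Whether these markers came from other cells or from the CD8 T cells was not tested. Any part of such cells in the receptor differences was not tested either.

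The cytokines themselves were scarcely transcribed in these cultures. Of the 6 ligand genes (Il2, Il4, Il7, Il9, Il15 and Il21) only Il15 passed the filter. Il15 totalled 41 counts over the 4 libraries of WT TE, 81 in TPdh−/− TE, 24 in WT TM and 102 in TPdh−/− TM, and it rose by 2.07 on the log2 scale in TPdh−/− TM (adjusted p = 0.00135, edgeR). Il2 totalled 9 counts or fewer per group and Il7 29 or fewer. Among partners outside the family, Il13ra1 joins Il4ra in the other receptor for IL-4. It totalled 13 counts in WT TE, 22 in TPdh−/− TE, 4 in WT TM and 60 in TPdh−/− TM. Il13ra1 passed the filter, but its test is left out because counts outside the last group were so few. Crlf2, which joins Il7r in the TSLP receptor, fell in TM in both genotypes (log2 -0.78 and -0.72, adjusted p = 0.0196 and 0.0378), and the genes of TSLP and IL-13 did not pass the filter.

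Of the 6 kinase and STAT genes, 1 rose in TPdh−/− TM, where 18.3% of all tested genes were called. In TPdh−/− TE 2 fell, where 31.6% were called. Jak1, the kinase of the partner chains, was at 990.8 CPM in WT TE and 673.1 in TPdh−/− TE (log2 -0.56, adjusted p = 1.3e-06, edgeR), and its difference in TM was 0.05 (adjusted p = 0.572). Jak3, the kinase of the gamma chain, fell by 0.36 in TPdh−/− TE (adjusted p = 0.0144), and it was lower in TM than in TE in both genotypes (log2 -0.88 and -0.68). Stat3, used by the IL-21 receptor, rose by 0.18 in TPdh−/− TM (adjusted p = 0.0231). Stat5a rose in TM over TE by 0.46 in WT and 0.27 in TPdh−/−, and its genotype differences were -0.13 in TM (adjusted p = 0.110) and 0.07 in TE (adjusted p = 0.380). For Stat5b and Stat6, no comparison was called.

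Of the 10 feedback inhibitor and phosphatase genes, 4 rose and 3 fell in TPdh−/− TE, where 31.6% of all tested genes were called. The 4 that rose were Cish, Socs1, Socs2 and Socs3, and the 3 that fell were phosphatase genes. In TPdh−/− TM 0 rose and 3 fell, where 18.3% of all tested genes were called. Cish, which STAT5 induces and which blocks the receptor, rose by 0.97 in TE (adjusted p = 1.3e-06, edgeR), from 93.3 to 182.4 CPM, and its difference in TM was 0.07 (adjusted p = 0.692). The suppressors Socs1, Socs2 and Socs3 rose by 0.78, 0.68 and 0.48 in TE. Ptpn6, the phosphatase SHP-1, fell by 0.44 in TE and by 0.76 in TM (adjusted p = 5.2e-06). Beside the same shares of all genes, 3 of the 9 adaptors and PI3K genes rose and 2 fell in TE, and 1 rose and 1 fell in TM. The adaptor Gab2 rose in both cultures, by 1.85 in TE (adjusted p = 2.9e-07) and 1.08 in TM (adjusted p = 0.00053), and Pik3r1, the regulatory PI3K subunit, fell by 0.54 in TE.

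The 15 STAT5 response genes were counted apart from the members. In TPdh−/− TE 9 rose and 3 fell, with a median log2 difference of 0.47, where 31.6% of all tested genes were called. In TPdh−/− TM 5 rose and 1 fell, with a median of 0.13, where 18.3% were called. The kinase gene Pim1 rose in both, by 0.62 in TE and 0.45 in TM, and the cell cycle inhibitor gene Cdkn1a by 1.11 and 1.89. The cytokine genes Lta and Osm rose by 2.41 and 1.35 in TE, and in TM their differences were -0.10 (adjusted p = 0.767) and -0.25 (adjusted p = 0.134). Prdm1 and Id2, regulators of effector cells, fell in TPdh−/− TE (log2 -0.88 and -0.36) and rose in TPdh−/− TM (1.62 and 1.14), and these effects differed between cultures (log2 2.50 and 1.51, adjusted p = 2.2e-05 and 3.3e-05). Bcl2, a survival gene, was higher in TM than in TE in WT (log2 1.39), and rose by 0.76 in TPdh−/− TE.

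**Figure D5:**
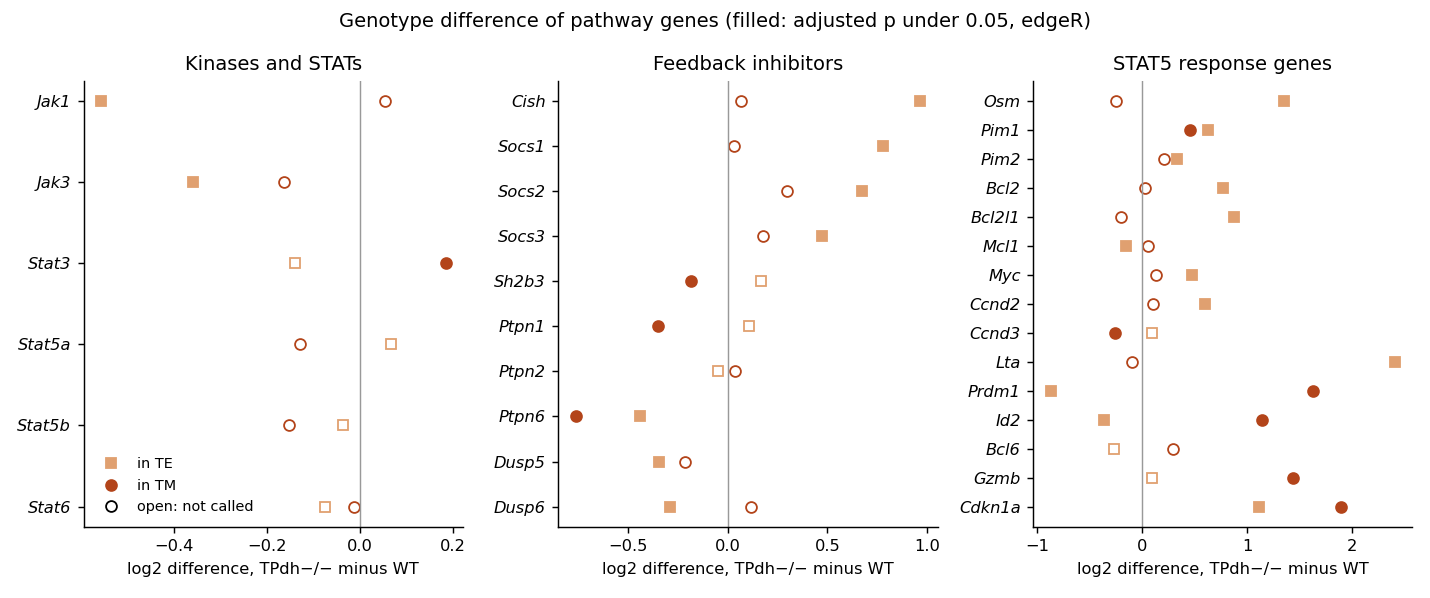
Points are log2 differences of TPdh−/− minus WT for 6 kinase and STAT genes, 10 feedback inhibitor and phosphatase genes and 15 STAT5 response genes. Squares are in TE and circles in TM, filled where adjusted p was under 0.05 (edgeR). Cish (0.97) and Socs1 (0.78) were to the right in TE, and Prdm1 (1.62) and Id2 (1.14) in TM.

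Between cultures, the pathway lists held calls in both directions. Over all tested genes, 68.6% were called in WT and 67.7% in TPdh−/−. In TM over TE, the kinase and STAT genes had 1 higher and 2 lower in WT and 2 higher and 1 lower in TPdh−/−. The STAT5 response genes had 8 higher and 7 lower in WT and 5 higher and 8 lower in TPdh−/−. For the feedback inhibitors and phosphatases these were 3 and 5 in WT and 1 and 5 in TPdh−/−. The adaptors and PI3K genes had 4 and 3 in WT and 2 and 2 in TPdh−/−.

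Of 23 cytokine receptors outside the family 22 were tested, and 8 rose and 2 fell in TPdh−/− TM, 6 rose and 4 fell in TPdh−/− TE. The shares called over all tested genes were 18.3% in TM and 31.6% in TE. In TM over TE 11 were higher and 8 lower in WT, with Il6ra (log2 4.05), the IL-6 receptor, at the top and the IL-33 receptor Il1rl1 (-4.94), the IL-12 receptor chain Il12rb2 (-2.31) and the IL-18 receptor Il18r1 (-1.68) on the other side. In TPdh−/− 11 were higher and 7 lower. These counts stand beside 68.6% of all tested genes called between cultures in WT and 67.7% in TPdh−/−. The median log2 difference of these receptors was 0.18 for genotype in TM and -0.02 in TE, beside 0.16 and 0.07 for the gamma chain family. The difference between the lists was not tested.

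Some genes outside the family followed its members closely over the 16 libraries, as a description of groups and libraries together. The genes most like Il2ra were Eps8 (Pearson r = 0.991), at 2.67, 10.6, 0.205 and 0.676 CPM in WT TE, TPdh−/− TE, WT TM and TPdh−/− TM, and Clic4 (0.987). Inpp5d (0.956) and Mical2 (0.955) were most like Il2rb, and Tbp (0.982) and Nufip2 (0.980) most like Il2rg. For Il4ra they were Anxa9 (0.940) and Jag2 (0.936), and for Il7r Pik3ip1 (0.969) and N4bp2l1 (0.968). Il15ra was followed by Slc25a53 (0.989) and Art2b (0.988), which stood at 10.9, 9.35, 56.6 and 85.3 CPM in the same order of groups. Sh3bp1 (0.925) and Ehd1 (0.919) were most like Il21r, which had the weakest likeness of the 7. Among the members, Il15ra and Il2rg had the highest r (0.962), and Il2ra and Il15ra the lowest (-0.874).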

How the data were processed

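Members and gene lists (7 beside the members, and 9 of cell markers) were chosen with earlier results of these data known. Per the labels, poly(A) libraries (TruSeq version 2, no strand kept) were mapped by STAR 2.7.6a to the mm10 build (GRCm38), and RSEM 1.3.3 estimated gene levels. The annotation release was not given in the sources used here. The authors deposited expected counts per gene, which need not be whole, TPM, and the mean transcript length. Symbols came from GENCODE M21 (99.5% of genes matched). Expected counts were rounded, filtered (filterByExpr, minimum count 10, minimum total 15), scaled by TMM and fitted with 1 mean per group over 16 libraries in edgeR 4.0.16 (R 4.3.3), with Benjamini-Hochberg adjustment over 15277 genes. Transcript length was compared on the log2 scale with limma 3.58.1, for genes with several transcript models and at least 1 CPM. Alternatives used RLE factors, no filter, DESeq2 1.42.0, limma on log2 CPM or log2(TPM + 1), only the groups compared, and libraries left out. All members were named; other lists gave up to 4 called genes per comparison by smallest adjusted p, which were then described in any comparison, ligands, partners, kinases and STATs any gene, and likeness the 2 highest r per member among genes of at least 1 CPM. Foxp3, Cd4, Ikzf4, Zbtb7b, Ncr1, Klra4, C1qb, Adgre1, Areg, Siglech and Tpsb2 were named after their values were seen. 1 gene was left out of the kinase and STAT list and is not reported here. The scripts were tested on simulated data. Counting error is largest for sparse genes, such as Il9r, the ligands, Il13ra1, and Ncr1 and Cd4 in WT TE.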

Additional observations from a re-analysis of the deposited data

Results flagged for a closer look

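Il15ra in WT TE library 1 was at 11.65 CPM, far from the other libraries of its group relative to their range; the gap took 0.833 of a range that itself spanned only 11.41 to 11.65 CPM. Chance flags about 1 in 20 groups, and 28 groups were examined. The genotype effects on Il2rb (difference 0.49, TM minus TE), Il15ra (0.40) and Il21r (-0.30) differed between cultures in edgeR's test of that difference, with adjusted p of 0.0179, 0.00562 and 0.0116.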

How the results depend on the processing

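No paired analysis was possible because no group shares a library number with another. Of the log2 differences of members, 529 of those leaving out 1 library and 225 under other alternatives kept their direction and side of the threshold, 13 and 6 lost the call, 3 and 2 gained it, and 15 and 5 turned, all of the last among values not called. The number of members called in TM between genotypes was 2 on log2(TPM + 1) and 7 without libraries 5 and 12 (6 without Il9r), against 4; for the difference of the genotype effects it was 1 on log2(TPM + 1) against 3. Over all genes, log2(TPM + 1) called 1637 in TM between genotypes against 2796. Leaving out 1 library gave 4 to 5 members in TM, 2 to 4 in TE, 6 to 7 between cultures in WT, 6 to 7 in TPdh−/− and 3 to 4 for the difference. Some of these fits added Il9r, and among the 7 members of the main test the counts were 3 to 4 in TM, with 3 without library 9, 13 or 16, and 2 to 3 in TE. The values that turned were Il2rg in TE (-0.0127 with no filter, -0.0344 without libraries 5 and 12, -0.0339 to 0.0349 leaving out 1 library), Il7r in TE (-0.0347 by limma on log2 CPM, -0.19 to 0.31), Il15ra in TE (0.0488 on log2(TPM + 1)), and for the difference of effects Il2rg (-0.0632 on log2(TPM + 1)) and Il4ra (-0.24 to 0.0100); the cause was not tested. With TMM-scaled CPM in place of TPM, 18 of the 28 group levels relative to the gene's mean moved by less than 1 SD and 10 by more. Depth limits the sparse genes, such as Il9r, the ligand genes and Il13ra1.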
